A study of Mus musculus with 12 samples.

Results

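The 7 genes described here were listed under the metabolism of vitamin A (retinol) and its derivatives, Aldh1a7 as a relative of Aldh1a1. All were taken by symbol from a deposited table of 52636 genes. They are the aldehyde dehydrogenase genes Aldh1a1, Aldh1a2, Aldh1a3 and Aldh1a7, the retinol dehydrogenase gene Rdh16, and the genes of the plasma carriers Rbp4 and Ttr. Each symbol matched 1 row, and all 7 genes were read in all 12 libraries. The libraries were made from total RNA of whole kidney of male wild-type C57BL/6 mice aged 8 weeks, 3 libraries in each of 4 groups. The cisplatin+PCN group received PCN and cisplatin, the cisplatin group corn oil and cisplatin, the PCN group PCN and saline, and the control group corn oil and saline. PCN is pregnenolone carbonitrile, a synthetic steroid and an agonist of the pregnane X receptor (PXR) of rodents, and was given by gavage at 40 mg/kg daily for 4 days and then for 3 days more. Cisplatin, a platinum drug that injures the renal tubule, was injected once into the peritoneum at 20 mg/kg, and tissue was taken 4 days later. The treatment text lists the cisplatin group both among the mice pretreated with PCN and among those given oil, so each group follows the title of its libraries.

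Retinol travels in plasma bound to retinol-binding protein 4 (encoded by Rbp4), which is held in a complex with transthyretin (Ttr) and so escapes loss in urine. The proximal tubule recovers filtered retinol-binding protein through the receptor megalin (Lrp2). Inside cells retinol is oxidised reversibly to retinal by retinol dehydrogenases such as the one Rdh16 encodes. Retinal is then oxidised irreversibly to retinoic acid, the ligand of the retinoic acid receptors, by the enzymes of Aldh1a1, Aldh1a2 and Aldh1a3. Aldh1a7 is a close relative of Aldh1a1 in rodents and is known for oxidising other aldehydes. Liver makes most plasma retinol-binding protein and transthyretin, and fat also expresses Rbp4.

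Levels are given in FPKM, fragments counted for each kilobase of a gene and scaled to the size of the library, which can be compared between genes. Differences were tested with limma on log2(FPKM + 1) across the 13540 genes with at least 1 FPKM in at least 3 of 12 libraries, and a gene was called at a Benjamini-Hochberg adjusted p under 0.05. All 7 genes passed that minimum, and Aldh1a1, Aldh1a7, Rdh16 and Ttr had at least 1 FPKM in all 12 libraries. Aldh1a2 lay under 1 FPKM in 1 control library, and Rbp4 in 1 PCN library. Aldh1a3 lay under it in all 3 cisplatin+PCN libraries. Libraries held between 18914607 and 26530485 reads in genes. The defining kidney markers Slc34a1, Umod, Slc12a3 and Aqp2 were each above 1 FPKM in every library. On the first principal component cisplatin+PCN libraries lay at 21.9, 40.7 and 29.3, cisplatin libraries between 51.2 and 62.6, PCN libraries between -44.9 and -43.3, and control libraries between -43.6 and -42.1. The labels do not say that libraries of a group are from separate animals, and p-values therefore reflect only how these libraries vary, which may be technical in part. In whole kidney, fewer cells of a type and less RNA per cell cannot be told apart.

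Aldh1a1 (ENSMUSG00000053279) spans chromosome 19 from 20492715 to 20643462 on the plus strand, and Aldh1a7 (ENSMUSG00000024747) lies 49490 bases beyond it, from 20692953 to 20727562 on the minus strand. Rbp4 (ENSMUSG00000024990) is on the same chromosome from 38116620 to 38125321. Aldh1a2 (ENSMUSG00000013584) lies on chromosome 9 from 71215789 to 71296243, and Aldh1a3 (ENSMUSG00000015134) on chromosome 7 from 66390890 to 66427517. Rdh16 (ENSMUSG00000069456) lies on chromosome 10 from 127801152 to 127846565. These 6 and Ttr are annotated as protein-coding, each span covers the whole gene with exons and introns, and coordinates are those of the deposited table read as GRCm38. Of all windows of 50 bases in their GENCODE M21 transcripts, 3.06% of those of Aldh1a1 and 7.49% of those of Aldh1a7 are shared between these genes, 14.0% of those of Rdh16 occur in relatives such as Rdh9, Rdh16f1 and Rdh18-ps, and 1.15% of those of Aldh1a3 occur in other genes (53 of 4601 windows). Aldh1a2, Rbp4 and Ttr share none. Rdh18-ps also overlaps Rdh16 on the same strand and reached at most 1.29 FPKM.

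RefSeq promoter windows on GRCm38.p6 (250 bases before and 50 after each annotated start) were matched for 5 of the 7 genes, Aldh1a1, Aldh1a2, Aldh1a7, Rdh16 and Rbp4. Those of Aldh1a1 and Aldh1a7 are shown because the neighbouring genes moved together in the results below. Aldh1a1 has 2 annotated starts, and the inner one, at position 20601968, resembles the single start of Aldh1a7, at 20727556. The 130 bases before each are printed 5′ to 3′ on the strand of the gene, and capitals mark the longest run that both hold, 65 bases. The first is chr19:20601838-20601967 on the plus strand and the second chr19:20727557-20727686 on the minus strand.
Aldh1a1: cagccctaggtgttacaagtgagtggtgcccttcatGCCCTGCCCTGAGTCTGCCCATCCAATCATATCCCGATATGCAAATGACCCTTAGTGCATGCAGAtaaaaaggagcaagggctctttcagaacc
Aldh1a7: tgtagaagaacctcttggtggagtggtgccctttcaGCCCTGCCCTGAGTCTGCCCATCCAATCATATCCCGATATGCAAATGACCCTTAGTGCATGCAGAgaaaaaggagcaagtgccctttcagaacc
In the 100 bases next to the start, 94 were identical between the inner start of Aldh1a1 and the start of Aldh1a7, against 30 of 100 for the upstream start of Aldh1a1. Of the 32851 promoter windows in the table only these 2 hold the shared run. The run contains the letters CCAAT, beginning 72 bases before each start, and ATGCAAAT, beginning 56 bases before it. Searched on both strands in the 250 bases before the start, CCAAT occurs in 33.8% of all windows and ATGCAAAT in 1.6%. Neither is limited to this pair among the 7 windows of the matched genes. CCAAT is in 4 of them, also in Aldh1a2 and Rbp4, and ATGCAAAT in 3, also in Aldh1a2. Exact direct repeats of the half-site AGGTCA were searched for in the same way, with a spacer of 3 bases, which PXR can bind, and of 5 bases, which retinoic acid receptors can bind. The first occurs in 0.00609% of all windows and the second in 0.00913%, and neither in the 7 windows of these genes. Exact repeats this rare would be missing from almost any 7 windows, so their absence does not bear on binding by either receptor. The deposited values are per gene, so the start in use was not measured.

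**Figure D1:**
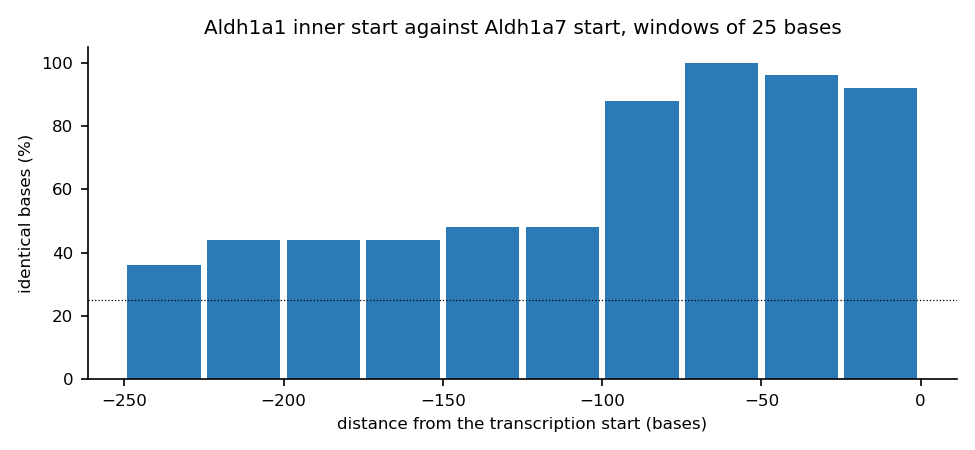
Identity between the bases before the inner start of Aldh1a1 and those before the start of Aldh1a7, in windows of 25 bases (y axis, percent of identical bases at the best shift of at most 15 bases) against distance from the start (x axis, bases, with the start at the right). The 4 windows nearest the start hold at least 88.0% identical bases and the 6 farther ones 36.0% to 48.0%, and the dotted line marks 25%.

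Cisplatin against control showed how the injured kidney differed from the vehicle kidney. Aldh1a1, Aldh1a7 and Aldh1a2 rose, Ttr and Aldh1a3 fell, and Rdh16 and Rbp4 did not pass the test. That is 3 of 7 higher and 2 of 7 lower, where 63.9% of all tested genes were called in either direction (32% higher, 31.9% lower). With so many genes called, the count of members lies near the background, and the sizes of the changes carry the description.

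Among the retinal dehydrogenases, Aldh1a1 had 31.7, 32.9 and 26.1 FPKM in cisplatin kidneys, against 1.39, 1.34 and 1.61 FPKM in control kidneys. Every cisplatin library stood far above every control library. The ratio of the means was 20.9, and the log2 difference was 3.67 ± 0.13 (SE, adjusted p = 1.23e-08 in limma's test), which only 0.598% of the tested genes exceeded in size.

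Aldh1a2, which makes retinoic acid in embryonic mesoderm and in mesothelium, had 8.21, 12.9 and 7.39 FPKM in cisplatin kidneys, against 1.63, 1.30 and 0.869 FPKM in control kidneys. The groups did not overlap, and the cisplatin libraries were the more spread. It rose by 2.19 ± 0.34 (log2, SE) with an adjusted p of 0.000196 from limma, a ratio of means of 7.50.

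Aldh1a3, the third retinoic acid-forming enzyme, went the other way. It had 1.11, 1.09 and 1.52 FPKM in cisplatin kidneys, against 4.83, 3.27 and 4.94 FPKM in control kidneys. All cisplatin libraries were below all control libraries, and the gene fell by 1.24 on the log2 scale (SE 0.16, adjusted p = 4.89e-05 in limma's test). The ratio of the means was 0.285.

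Aldh1a7 had 38.7, 42.8 and 28.2 FPKM in cisplatin kidneys, against 5.36, 5.84 and 5.41 FPKM in control kidneys. The groups lay far apart, with replicate 3 the lowest cisplatin library for Aldh1a7 as it was for Aldh1a1. It rose by 2.50 ± 0.12 (log2, SE, adjusted p = 7.02e-08 in limma's test), a ratio of means of 6.61.

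The make-up of the family also differed. The summed level of the 4 Aldh1a genes was 77.5 ± 13.4 FPKM in cisplatin kidneys and 12.6 ± 0.759 FPKM in control kidneys (SD, n = 3 each). Aldh1a1 made up 39.2 ± 2.34% of that sum in cisplatin kidneys and 11.5 ± 1.03% in control kidneys. Aldh1a3 made up 1.67 ± 0.641% in cisplatin kidneys and 34.3 ± 5.69% in control kidneys. Aldh1a7 was the largest part in both, at 47.0 ± 2.06% in cisplatin kidneys and 44.2 ± 4.87% in control kidneys. The ratio of Aldh1a7 to Aldh1a1 lay between 1.08 and 1.30 in the cisplatin libraries and between 3.36 and 4.35 in the control libraries, ranges that stood apart.

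**Figure D2:**
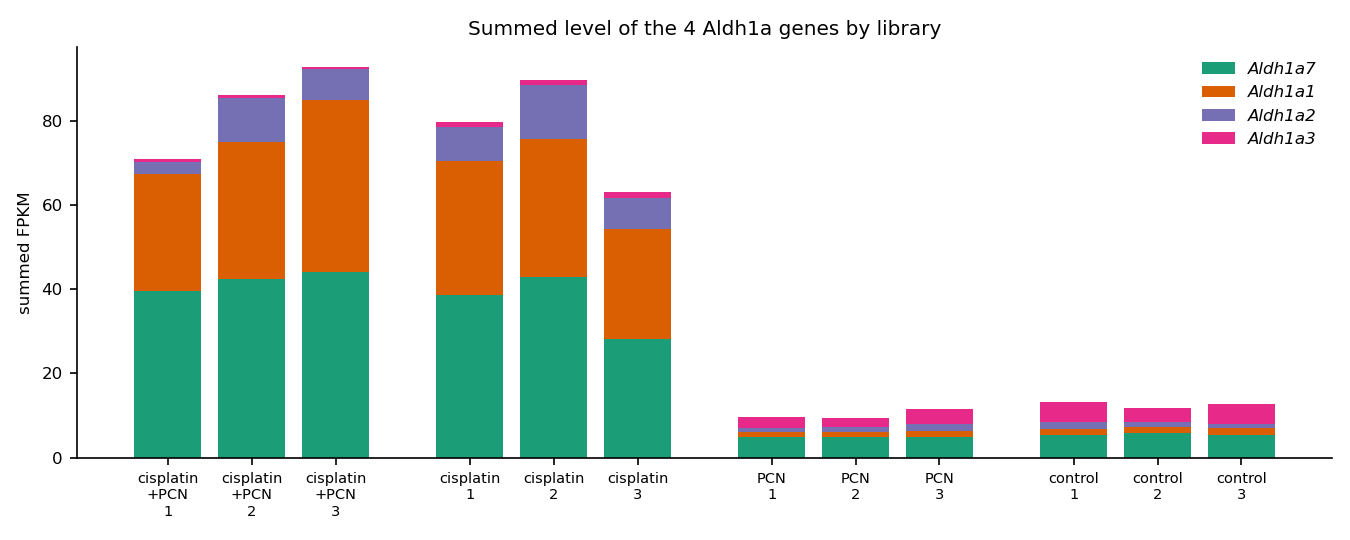
Summed FPKM (y axis) of Aldh1a7, Aldh1a1, Aldh1a2 and Aldh1a3 in each of the 12 libraries (x axis, group and replicate number), as stacked bars. The 6 libraries with cisplatin reach 63.2 to 92.9 FPKM and the 6 without it 9.34 to 13.2 FPKM, and Aldh1a3 is a visible share mainly where cisplatin was not given.

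Rdh16, the retinol-oxidising step, had 32.4, 30.2 and 27.6 FPKM in cisplatin kidneys, against 26.8, 30.4 and 28.8 FPKM in control kidneys. The groups overlapped, and the log2 difference was 0.07 (95% interval -0.25 to 0.38, adjusted p = 0.701 in limma's test).

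The carriers differed from each other. Ttr (ENSMUSG00000061808, chromosome 18 from 20665250 to 20674324, plus strand) had 12.8, 11.5 and 15.4 FPKM in cisplatin kidneys, against 69.5, 56.7 and 66.5 FPKM in control kidneys. The groups lay far apart, and Ttr fell by 2.20 on the log2 scale (SE 0.12, adjusted p = 1.74e-07 in limma's test), a ratio of means of 0.206.

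Rbp4, its partner in plasma, had 1.48, 1.30 and 1.64 FPKM in cisplatin kidneys, against 1.40, 1.66 and 1.24 FPKM in control kidneys. The groups overlapped, with a log2 difference of 0.03 (95% interval -0.28 to 0.33, adjusted p = 0.878 in limma's test). Its values rest on 37 to 58 reads per cisplatin library and 34 to 49 per control library. The ratio of Ttr to Rbp4 was 8.98 ± 0.392 in cisplatin kidneys and 45.8 ± 10.2 in control kidneys (SD, n = 3 each).

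**Figure D3:**
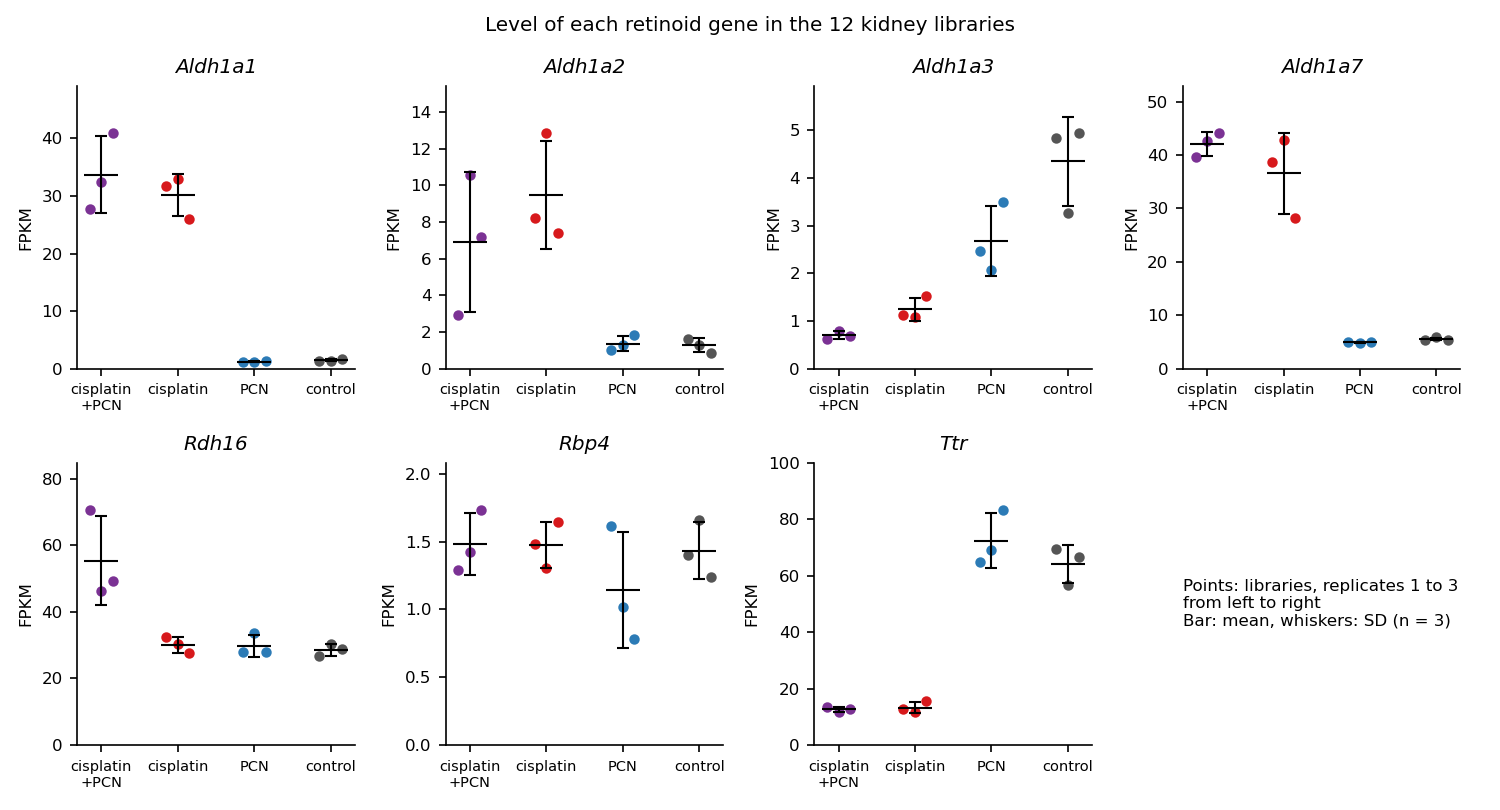
FPKM (y axis, linear and starting at 0, with its own scale in each panel) of the 7 genes in the 4 groups (x axis). Points are libraries, bars means and whiskers SDs (n = 3). Aldh1a1, Aldh1a2 and Aldh1a7 are high in both groups with cisplatin, Ttr and Aldh1a3 are low there, Rdh16 is highest with cisplatin+PCN, and Rbp4 stays between 0.785 and 1.74 FPKM.

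Markers of cell types and tissues that could carry these transcripts moved as follows, and their part in the results was not tested. The summed level of 8 proximal tubule markers was 542 to 679 FPKM in cisplatin kidneys and 2919 to 3182 FPKM in control kidneys. All 8 fell, as Ttr and Aldh1a3 did. The 3 markers of the thick ascending limb and the 2 of the distal tubule also all fell, as did 1 of 2 podocyte markers. Of 2 tested collecting duct markers 1 rose and 0 fell. Over all tested genes 31.9% fell and 32% rose. The summed level of 8 mesothelial and stromal markers was 46.4 to 53.5 FPKM in cisplatin kidneys and 20.3 to 27.7 FPKM in control kidneys. Of 7 tested 5 rose, in the same direction as Aldh1a2. Msln, 1 of the 7, reached the expression minimum only through the groups with cisplatin. Upk3b had 1.99 ± 0.423 FPKM in cisplatin kidneys and 2.285 ± 0.663 FPKM in control kidneys (SD), and Lrrn4 lay under 1 FPKM throughout. Dcn, the largest part of the sum, had 17.5 ± 3.92 FPKM in cisplatin kidneys and 7.81 ± 1.64 FPKM in control kidneys. Of 4 macrophage markers 2 rose and 1 fell, with sums of 66.1 to 119 FPKM in cisplatin kidneys and 15.3 to 17.8 FPKM in control kidneys. Cd14, the largest part of the sum in cisplatin kidneys, had 65.9 ± 27.3 FPKM there and 3.57 ± 0.374 FPKM in control kidneys. Cd68 had 16.6 ± 1.21 and 1.99 ± 0.431 FPKM in the same order. Csf1r (3.85 ± 0.357 and 9.29 ± 0.774 FPKM) and Adgre1 (0.94 ± 0.239 and 1.42 ± 0.078 FPKM) were lower in cisplatin kidneys. All 8 markers of the adrenal gland, whose cortex is rich in Aldh1a1 and Aldh1a7, lay under 1 FPKM in cisplatin and control libraries and together gave 1.001 to 1.32 FPKM in cisplatin kidneys and 0.868 to 1.12 FPKM in control kidneys. Cyp11b2 was listed at 0 in all libraries, and Cyp11b1 at 0.0328 FPKM in 1 cisplatin library and 0 in the others. Of 8 liver markers 3 were tested, and 2 fell, in the same direction as Ttr, and 0 rose. Alb, at 0.423 to 0.647 FPKM in cisplatin kidneys and 1.92 to 7.88 FPKM in control kidneys, fell by 1.92 on the log2 scale and Apoa2 by 0.97. The 8 together, with Serpina1a (not called) the largest part, gave 26.6 to 41.2 FPKM in cisplatin kidneys and 18.6 to 42.6 FPKM in control kidneys. Of 6 pancreas markers only Cela1 exceeded 1 FPKM in any library, and Ins1 and Gcg were listed at 0 in all.

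Cisplatin+PCN against cisplatin set the kidney of mice given both agents against that of mice given cisplatin alone. Rdh16 rose, and the other 6 genes did not pass the test (1 of 7 called, where 15.6% of all tested genes were called, 7.97% higher and 7.61% lower). Rdh16 had 70.7, 46.3 and 49.2 FPKM in cisplatin+PCN kidneys, against 32.4, 30.2 and 27.6 FPKM in cisplatin kidneys. Every cisplatin+PCN library was above every cisplatin library, and replicate 1 was the highest. The log2 difference was 0.84 ± 0.14 (SE, adjusted p = 0.0085 in limma's test), a ratio of means of 1.84. Without cisplatin+PCN replicate 1 it was 0.65 (adjusted p = 0.0124), and with only the 6 libraries compared in the fit the call was lost (adjusted p = 0.117). Over all 24 alternatives the adjusted p ranged from 0.000297 to 0.117. The proximal tubule markers summed to 1287, 616 and 818 FPKM in cisplatin+PCN kidneys, against 679, 542 and 599 FPKM in cisplatin kidneys, highest in the same replicate 1. Within the cisplatin+PCN group, replicate 1 also had the highest sums of thick ascending limb (1718 FPKM), distal (23.3), collecting duct (565) and podocyte markers (42.6). Not every marker followed its sum. Atp6v1g3 of the collecting duct was lowest in replicate 1 (23.5, 32.2 and 28.3 FPKM), and Kcnj1 of the thick ascending limb was highest in replicate 3 (45.7, 44.2 and 48.4 FPKM). With cisplatin+PCN against cisplatin 6 of 8 proximal tubule markers were called higher. So were 1 of 3 of the thick ascending limb, 1 of 2 distal, 1 of 2 tested collecting duct (the other lower) and 0 of 2 podocyte markers. The part of any of these cell types in the rise of Rdh16 was not tested.

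The 4 Aldh1a genes did not pass the test. The ranges of Aldh1a1, Aldh1a7 and Aldh1a2 overlapped those of cisplatin kidneys. Ranges that stand apart with 3 libraries against 3 carry little weight alone, as exact permutation gives p no lower than 0.1. How many of all tested genes stand apart was not counted. Aldh1a1 had 27.8, 32.4 and 40.9 FPKM in cisplatin+PCN kidneys, and its log2 difference from cisplatin kidneys was 0.14 (95% interval -0.14 to 0.42, adjusted p = 0.463 in limma's test). Aldh1a7 had 39.6, 42.5 and 44.1 FPKM in cisplatin+PCN kidneys, a difference of 0.22 (95% interval -0.05 to 0.48, adjusted p = 0.239). Neither interval reaches 1 on the log2 scale in either direction. Of 24 alternatives only array weights called them, at 0.39 for Aldh1a1 (adjusted p = 0.00512) and 0.25 for Aldh1a7 (adjusted p = 0.0145).

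Aldh1a2 was uneven, at 2.93, 10.6 and 7.17 FPKM in cisplatin+PCN kidneys, and its difference of -0.51 (95% interval -1.25 to 0.23, adjusted p = 0.314) shrank to -0.07 without replicate 1. That library also had the lowest sum of mesothelial and stromal markers of its group, 29.3 FPKM, against 41.9 and 36.5 FPKM in the others. In the cisplatin group the 2 did not go together. There replicate 3 had the highest marker sum, 53.5 FPKM, and the lowest Aldh1a2, 7.39 FPKM. The part of these cells in the level of Aldh1a2 was not tested. Aldh1a3 had 0.629, 0.783 and 0.685 FPKM in cisplatin+PCN kidneys, against 1.11, 1.09 and 1.52 FPKM in cisplatin kidneys. These ranges did not overlap, but the difference of -0.39 (95% interval -0.74 to -0.05) had an adjusted p of 0.111 in limma's test and passed only with a pseudocount of 0.1 (-0.74, adjusted p = 0.0443). The values rest on 73 to 92 reads per cisplatin+PCN library and 99 to 191 per cisplatin library.

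The carriers showed no difference that the spread allowed to be called. Ttr had 13.3, 11.7 and 12.8 FPKM in cisplatin+PCN kidneys, and its difference from cisplatin kidneys was -0.06 (95% interval -0.33 to 0.21, adjusted p = 0.765 in limma's test). Rbp4 had 1.29, 1.42 and 1.74 FPKM in cisplatin+PCN kidneys, a difference of 0.00 (95% interval -0.30 to 0.30, adjusted p = 0.993).

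**Figure D4:**
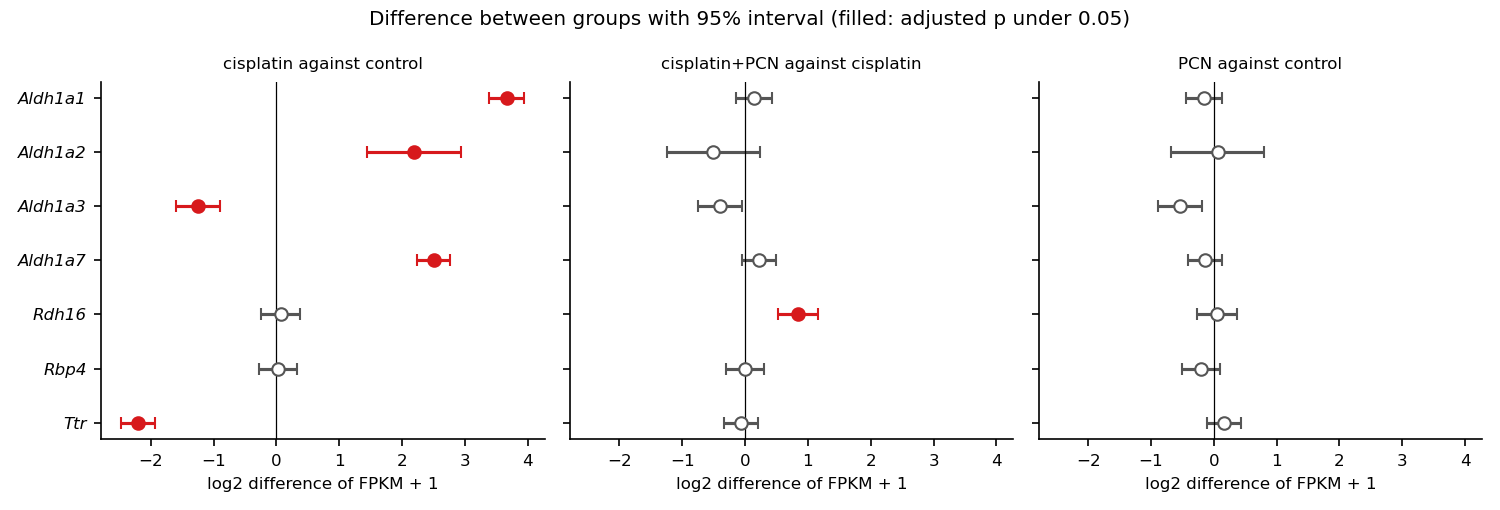
Log2 difference of FPKM + 1 (x axis) for the 7 genes (rows) in 3 comparisons (panels), with 95% intervals from limma. Filled red points passed an adjusted p under 0.05 and open points did not. The comparison of cisplatin with control has 5 filled points, cisplatin+PCN with cisplatin has Rdh16 alone, and PCN with control has 0.

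PCN against control showed what PCN did in the uninjured kidney. Of the 7 genes 0 were called, as were 0% of all 13540 genes tested with limma (438 at an unadjusted p under 0.05, smallest adjusted p 0.996), and limma-voom on recovered reads also called 0. Aldh1a1 had 1.13, 1.19 and 1.28 FPKM in PCN kidneys, against 1.39, 1.34 and 1.61 FPKM in control kidneys. The ranges did not overlap, but the log2 difference was small, at -0.16 (95% interval -0.44 to 0.13). Aldh1a7 had 4.97, 4.83 and 4.99 FPKM in PCN kidneys, against 5.36, 5.84 and 5.41 FPKM in control kidneys. Here too the ranges stood apart, with a difference of -0.14 (95% interval -0.41 to 0.13). How many of all tested genes stand apart in this comparison was not counted. Aldh1a3 had 2.47, 2.06 and 3.49 FPKM in PCN kidneys, against 4.83, 3.27 and 4.94 FPKM in control kidneys. Its difference was -0.54 (95% interval -0.89 to -0.20, unadjusted p = 0.00559 in limma's test), with 1 PCN library inside the control range, and it did not survive adjustment over all genes. Fitted on the control and PCN libraries alone, the adjusted p was 0.685 for Aldh1a1, 0.664 for Aldh1a7 and 0.664 for Aldh1a3.

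The remaining genes overlapped between PCN and control kidneys. Rdh16 had 27.9, 33.6 and 27.9 FPKM in PCN kidneys, a difference of 0.05 (95% interval -0.26 to 0.37). Ttr had 64.8, 69.1 and 83.4 FPKM in PCN kidneys (0.17, 95% interval -0.10 to 0.44), and Aldh1a2 had 1.004, 1.26 and 1.82 FPKM (0.06, 95% interval -0.68 to 0.80). Rbp4 had 1.62, 1.02 and 0.785 FPKM in PCN kidneys (-0.20, 95% interval -0.50 to 0.10). Adipocyte markers, which bear on Rbp4, summed to 237 FPKM in PCN replicate 1 and 160 FPKM in control replicate 1, against 28.1 to 52.9 FPKM in the other PCN and control libraries. PCN replicate 1 was the PCN library with the most Rbp4, while control replicate 1, at 1.40 FPKM, lay below control replicate 2, at 1.66 FPKM, which had the lowest adipocyte sum of the controls. Without both of these libraries, a setting added after the data were seen, the difference in Rbp4 was -0.36 and remained uncalled.

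Cisplatin+PCN against PCN gave the effect of cisplatin in mice that all had PCN. Aldh1a1, Aldh1a7, Aldh1a2 and Rdh16 rose, and Ttr and Aldh1a3 fell, 6 of 7 called where 46.9% of all tested genes were. In limma's test the log2 differences were 3.96 ± 0.13 for Aldh1a1 (SE, adjusted p = 1.28e-08), 2.86 ± 0.12 for Aldh1a7, 1.62 ± 0.34 for Aldh1a2 and 0.85 ± 0.14 for Rdh16 (adjusted p = 0.000639). Ttr fell by 2.42 and Aldh1a3 by 1.10 on the log2 scale. Rbp4 stood at 0.23 (95% interval -0.07 to 0.53, adjusted p = 0.193) and passed without PCN replicate 1 (0.38, adjusted p = 0.0272), also when control replicate 1 was left out with it (adjusted p = 0.0377), and with array weights (0.40, adjusted p = 0.00241). Cisplatin+PCN against control called the same 6 genes in the same directions, where 46.6% of all tested genes were called. There Rdh16 stood at 0.90 ± 0.14, Aldh1a1 at 3.81 ± 0.13 and Ttr at -2.26 ± 0.12. These comparisons share the cisplatin+PCN libraries, so they are not separate evidence.

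Whether the cisplatin effect differed with PCN was tested as the interaction, and 0 of the 7 genes passed (0.111% of all tested genes did, 0.0739% higher and 0.0369% lower). The estimate for Rdh16 was 0.79 ± 0.20 (log2, SE, 95% interval 0.34 to 1.23, unadjusted p = 0.00255, adjusted p = 0.117 in limma's test). Its adjusted p ranged from 0.00715 to 0.256 over 23 alternatives, of which 3 called it: array weights, limma-voom on recovered reads (0.0493) and the fit without cisplatin+PCN replicate 2 (0.0388). The pass of Rdh16 with cisplatin+PCN against cisplatin and not with PCN against control is therefore not shown to be a difference between the injured and uninjured kidney in this test. The next estimates were 0.36 for Aldh1a7 (95% interval -0.02 to 0.73, adjusted p = 0.284) and 0.30 for Aldh1a1 (95% interval -0.10 to 0.69, adjusted p = 0.389).

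The order of levels among the 7 genes differed between groups. In cisplatin+PCN kidneys Rdh16 led at 55.4 ± 13.3 FPKM, above Aldh1a7 (42.1 ± 2.28) and Aldh1a1 (33.7 ± 6.69), whose ranges overlapped. In cisplatin kidneys Aldh1a7 (36.6 ± 7.54), Aldh1a1 (30.2 ± 3.65) and Rdh16 (30.1 ± 2.38) came first with overlapping ranges, then Ttr (13.3 ± 1.99) and Aldh1a2 (9.49 ± 2.94), also overlapping. In PCN and control kidneys the order began with Ttr, Rdh16, Aldh1a7 and Aldh1a3, each apart from the next, at 64.3 ± 6.68, 28.6 ± 1.80, 5.53 ± 0.263 and 4.35 ± 0.935 FPKM in control kidneys (SD, n = 3). Below them Aldh1a1, Rbp4 and Aldh1a2 lay between 0.785 and 1.82 FPKM with neighbours overlapping. Aldh1a3 was last in both groups with cisplatin, overlapping Rbp4 in the cisplatin group.

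The other genes of the pathway, 48 in a list chosen with earlier results of these data known, were read in the same way, and 25 passed the expression minimum. With cisplatin against control 5 of 25 rose and 11 of 25 fell (median log2 difference -0.02, against 0.01 over all tested genes), where 32% of all tested genes rose and 31.9% fell, so the count called lies near the background. Bco1, Crabp2 and Stra6l reached the expression minimum only through the groups with cisplatin, where they are high, so the counts of rises that include them are set in part by the filter.

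Among carriers and uptake genes 2 of 4 tested rose with cisplatin, both of them such genes, and 1 fell, beside 32% and 31.9% of all tested genes. The megalin gene Lrp2 fell to 14.5 ± 2.87 FPKM in cisplatin kidneys, against 123 ± 8.02 FPKM in control kidneys. Stra6l, which encodes a membrane receptor for retinol-binding protein, rose by 1.02 ± 0.20 (log2, SE, adjusted p = 0.000894 in limma's test). The cellular retinoic acid carrier gene Crabp2 rose by 0.95. The carotene-cleaving enzymes moved in opposite directions, as Bco1, which splits beta-carotene into retinal, rose by 2.39 ± 0.32 and Bco2, which cuts carotenoids off centre, fell by 2.21. Bco1 had 9.38 ± 3.08 FPKM in cisplatin kidneys and 0.911 ± 0.0356 FPKM in control kidneys (SD, n = 3 each), and Bco2 had 0.667 ± 0.0236 FPKM in cisplatin kidneys and 6.71 ± 0.706 FPKM in control kidneys. Retinol esterifying Lrat lay under the expression minimum.

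Of 10 tested genes that convert retinol and retinal 8 fell with cisplatin and 1 rose, beside 31.9% and 32% of all tested genes, while Rdh16 itself did not pass. The rise was in Rdh11, a retinal-reducing enzyme (1.27 ± 0.16, adjusted p = 5.15e-05 in limma's test). Adh1, an alcohol dehydrogenase that oxidises retinol, fell by 1.17, Rdh16f2, a relative of Rdh16, by 1.14 and Dhrs4 by 0.92. Aldh8a1, an aldehyde dehydrogenase with activity on the 9-cis form of retinal, had 30.5 ± 7.65 FPKM in cisplatin kidneys and 92.7 ± 2.93 FPKM in control kidneys and fell by 1.60 (adjusted p = 5.68e-05). Of the 5 tested receptor genes 0 were called in limma's test, with log2 differences from -0.10 (Rxrb) to 0.39 (Rxra).

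Genes known to respond to retinoic acid were few here. Of 9 listed 5 were tested, and 2 rose with cisplatin and 1 fell, beside 32% and 31.9% of all tested genes. Crabp2, 1 of the 2 that rose, reached the expression minimum only through the groups with cisplatin. Tgm2, which encodes a transglutaminase, was higher by 0.96 ± 0.12 (log2, SE, adjusted p = 3.81e-05 in limma's test), besides Crabp2 above, and Dhrs3, a retinal reductase, fell by 0.82. Cyp26b1, which breaks down retinoic acid, had 6.05 ± 1.99 FPKM in cisplatin kidneys and 4.52 ± 3.24 FPKM in control kidneys (adjusted p = 0.25), and Cyp26a1 reached at most 0.422 FPKM in any library.

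With cisplatin+PCN against cisplatin 3 of the 25 were higher and 3 lower, beside 7.97% and 7.61% of all tested genes. That count fell to 3 in all without cisplatin+PCN replicate 1, to 2 without cisplatin+PCN replicate 3, to 2 without cisplatin replicate 3, to 3 without any 1 of 5 libraries (PCN replicates 1 and 3 and each control), and to 0 with only the 6 libraries compared. Lrp2 (1.03 ± 0.16), Rdh16f2 (0.95 ± 0.28) and Bco2 (0.67 ± 0.10) were higher. Bco1 (-1.12 ± 0.32), Rdh11 (-0.66 ± 0.16) and Tgm2 (-0.41 ± 0.12) were lower. Rdh16f2 had 70.5 ± 25.7 FPKM in cisplatin+PCN kidneys and 34.9 ± 9.38 FPKM in cisplatin kidneys, against 77.0 ± 8.35 FPKM in control kidneys, so unlike Rdh16 it was not above the control level. With PCN against control 0 of the 25 were called.

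**Figure D5:**
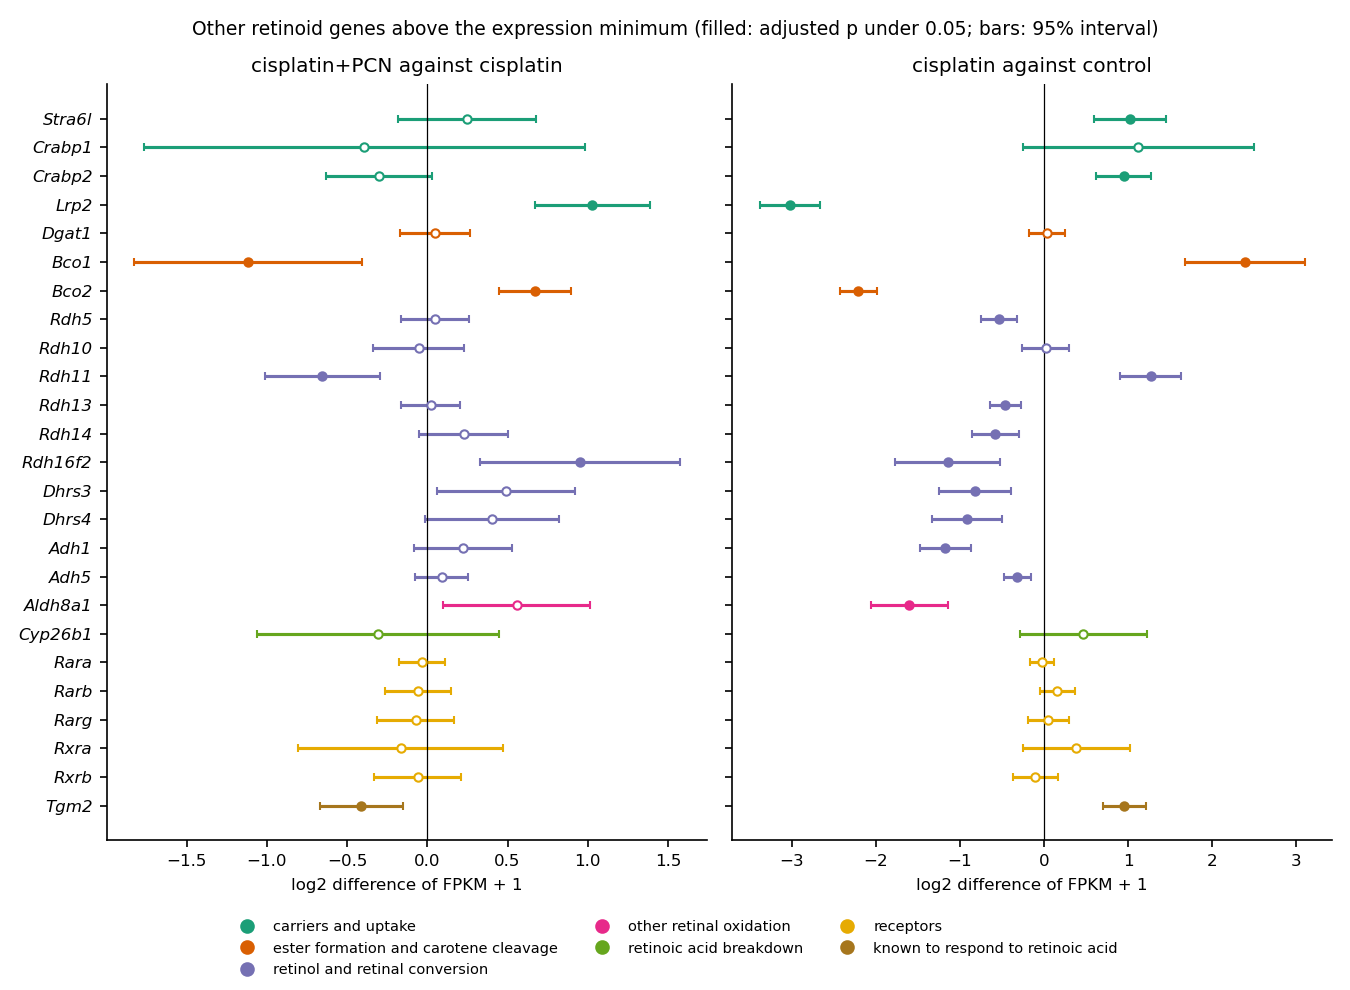
Log2 difference of FPKM + 1 (x axes, which differ between the panels) for the 25 other retinoid genes above the expression minimum (rows, coloured by role), with 95% intervals from limma. The left panel sets cisplatin+PCN against cisplatin and the right cisplatin against control, and filled points passed an adjusted p under 0.05 (6 at the left, 16 at the right).

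The rise of Aldh1a1, Aldh1a2 and Aldh1a7 was set beside 14 other aldehyde dehydrogenase genes. Of the 12 tested, 2 rose with cisplatin and 7 fell (median -0.61), beside 32% and 31.9% of all tested genes. Aldh4a1, of proline breakdown, fell by 1.85, Aldh6a1, of valine breakdown, by 1.37, Aldh9a1 by 0.95 and Aldh7a1, of lysine breakdown, by 0.93. The rises, named after their values were seen, were in Aldh2, the mitochondrial enzyme of acetaldehyde oxidation (0.64), and Aldh3b1 (0.43). With cisplatin+PCN against cisplatin 2 of 12 were higher, Aldh4a1 (0.76) and Aldh7a1 (0.61), and 0 were lower, beside 7.97% and 7.61% of all tested genes.

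The genes whose log2(FPKM + 1) followed each member most closely over the 12 libraries are given as a description, since any gene that separates libraries with and without cisplatin will follow such a member. For Aldh1a1 they were the epoxide hydrolase gene Ephx1 (Pearson r = 0.998) and Aldh1a7 (0.997). For Aldh1a7 they were the carbonyl reductase genes Cbr3 (0.999) and Cbr1 (0.998). Aldh1a2 was nearest to Mlkl (0.987), the effector of necroptosis, and to Car13 (0.987), a carbonic anhydrase gene. Aldh1a3 was nearest to Akr1b3 (0.972), the aldose reductase gene, and to Cd59b (0.950). Rdh16 was nearest to Hacl1 (0.971), of peroxisomal fatty acid oxidation, and to Ghdc (0.945). Ttr was nearest to Usp8 (0.993) and Sap30 (0.992), while the highest value for Rbp4 was 0.838 (Mtbp).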

How the data were processed

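Kidney mRNA of 4 groups of 3 libraries was analysed from 1 table of FPKM that the authors deposited. HISAT2 2.0.5, featureCounts 1.5.0-p3, DESeq2 1.16.1 and edgeR 3.18.1 are listed without roles or settings per the submitters' processing notes, which name build mm8. Of the gene identifiers, 52403 are in GENCODE M21 (GRCm38), 95.2% of them with the same coordinates, though Aldh1a1, Rbp4 and Ttr differ there. Strandedness was not stated in the labels, so antisense reads cannot be separated.

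FPKM times gene length gave whole reads (within 0.001) for 100% of values above 0. An FPKM of 1 stood for 18.7 to 27.3 reads per kilobase. No replicate pair agreed within sampling noise (12 pairs, chi-square from 4.97 to 78.7 per gene). On log2(FPKM + 1), limma 3.58.1 (R 4.3.3, trended variance) was fitted as 1 model of 4 group means, two-sided, with Benjamini-Hochberg adjustment over 13540 genes in each of 6 comparisons. The pseudocount shrinks the changes of weakly expressed genes. Exact permutation of 3 libraries against 3 gives p no lower than 0.1 and was not used. The procedure was tested on simulated data. That covered only PCN against control and cisplatin+PCN against cisplatin, and it counted calls in either direction.

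All 7 members and every pathway gene are counted, and up to 4 called genes per role and comparison are named, those with the largest changes; the few uncalled pathway genes named, and called ones beyond the 4, were picked after their values were seen. Some listed genes are not reported here and were left out of all counts of lists. The members and lists were chosen with earlier results of these data known. Alternatives were other pseudocounts, filters, scalings, libraries, weights, a replicate block and limma-voom on recovered reads.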

Additional observations from a re-analysis of the deposited data

How the results depend on the processing

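Directions of the 5 calls with cisplatin against control, and of the 6 with cisplatin+PCN against PCN or control, held under every alternative that kept the gene. A mean of at least 5 FPKM removed Aldh1a2, Aldh1a3 and Rbp4, so that 3 of the remaining genes were called with cisplatin against control. With cisplatin+PCN against cisplatin 1 gene was called, and 2 were with a pseudocount of 0.1, 3 with array weights and 0 with only the groups compared. In the interaction 0 were called, but 3 with array weights, 1 with limma-voom, and 0 to 1 when single libraries were left out. Signs changed only for small differences that were not called. The interaction of Aldh1a3 (0.15) was -0.0468 with a pseudocount of 0.1 and -0.14 with limma-voom, and Rbp4 with cisplatin+PCN against cisplatin was -0.0194 with quantile scaling and -0.0189 with limma-voom. When single libraries were left out, differences with cisplatin+PCN against cisplatin ranged from -0.0045 to 0.2676 for Aldh1a1, -0.0695 to 0.0595 for Rbp4 and -0.1492 to 0.0461 for Ttr. Those of Rbp4 ranged from -0.0435 to 0.0938 with cisplatin+PCN against control and -0.0315 to 0.0911 with cisplatin against control. With PCN against control they ranged from -0.0344 to 0.0959 for Rdh16 and -0.0762 to 0.1734 for Aldh1a2 (0.2843 without both control replicate 1 and PCN replicate 1).

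Over all genes, cisplatin+PCN against cisplatin called 2110 in the fit of 12 libraries, 1 with only the groups compared, 1008 without a filter, 6862 with array weights, and 530 to 3365 when single libraries were left out. Cisplatin against control called 8649, and 5197 with a mean of at least 5 FPKM. Cisplatin+PCN against PCN called 6352 (4031 with that mean, 9555 with array weights) and against control 6308 (4000 with that mean). The interaction called 15, and 4315 with array weights, 68 with limma-voom, 30 with that mean, 0 without control replicate 1 and PCN replicate 1, and 9 to 1057 when single libraries were left out. PCN against control called 2 without a filter. Of the 25 other retinoid genes, cisplatin+PCN against cisplatin called 6, but 2 without a filter, 3 with the rescaling below and 13 with array weights. Rescaling without the highest genes moved the share of higher calls to 64.8% with cisplatin+PCN against cisplatin, beside 51.1% as reported. With limma-voom that share was 62% against PCN and 60.2% against control, beside 50% and 49.3%, and in the interaction 89.7% (77.3% with the rescaling), beside 66.7%. The replicate numbers are not shown to pair the libraries (correlation of deviations from -0.281 to 0.366 over 18 pairs, 4 above 0.1). Those 4 were replicates 1 and 2 of cisplatin+PCN with cisplatin (0.366 and 0.239) and of PCN with control (0.222 and 0.158). Replicate 3 gave -0.281 and 0.0275 there, and 3 libraries per group cannot settle whether any are paired. The replicate block changed no call of the 7 genes, with Rdh16 at an adjusted p of 0.0183 for cisplatin+PCN against cisplatin. Depth limits the genes with few reads: Rbp4 rests on 22 to 58 reads per library, and Aldh1a2 on 44 to 89 in PCN and control libraries.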
